A study of Mus musculus with 12 samples.

Results

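Interleukin receptor chains are the cell-surface subunits through which T cells read cytokines. The chains described here were named in a list of 9 genes, Il2ra, Il2rb, Il2rg, Il7r, Il4ra, Il21r, Il6ra, Il6st and Il18r1. A probe set was taken as a member when the array annotation gave it one of these symbols and no other. The rule found 17 of the 45101 probe sets on the array, for 8 of the 9 genes. Il2rg, which encodes the common gamma chain, had no such probe set and was not analysed here.

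The arrays carried RNA from CD8 T cells of the spleens of male mice, isolated with an enrichment kit. Every mouse had Cd4-Cre, in which the Cd4 promoter drives Cre in developing T cells before the CD4 and CD8 lineages part. Littermates with intact Scap alleles were the controls (Cd4-Cre/Scap+/+, called WT). The others had floxed Scap alleles (Cd4-Cre/Scapfl/fl, called KO). The product of Scap is an escort protein that carries the SREBP transcription factors, the activators of lipid synthesis genes, to the Golgi. Cells were studied quiescent (T0) or 6 h after activation on plates coated with anti-CD3, with anti-CD28 in solution (T6), and each of the 4 groups had 3 arrays labelled as biological replicates. Cells of 3 mice per genotype were used, but which T0 and T6 arrays share a mouse is not given, nor is the age of the mice. The cells were an enriched population and not single cells, so fewer cells of a type and less RNA per cell cannot be told apart.

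Most of these chains belong to the class I cytokine receptors, which signal through JAK kinases and STAT transcription factors. Il2ra (CD25) is the alpha chain that gives the IL-2 receptor its high affinity, and Il2rb (CD122) is the signalling beta chain shared by the receptors for IL-2 and IL-15. Il7r (CD127), Il4ra and Il21r encode the chains that bind IL-7, IL-4 and IL-21, and each pairs with the common gamma chain. Il6ra binds IL-6 and then recruits Il6st (gp130), the signalling chain shared by the IL-6 family. Il18r1 belongs to the IL-1 receptor family, signals through MyD88, and is the chain that binds IL-18. Quiescent T cells depend on IL-7 for survival, and antigen receptor stimulation is known to induce Il2ra.

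Each value is the signal of a probe set, a fluorescence intensity that the authors had scaled per array. Tests used log2(signal + 16), with the probe set of highest mean standing for its gene. Genes were kept if 3 or more of the 12 arrays had that probe set above their own percentile 40, which left 13156 genes. All 8 measured chains were kept, and 7 of them lay above that level on all 12 arrays. The exception was Il2ra, above it on 11 arrays. The level itself lay between signals of 34.0 and 42.7. A gene was called when its Benjamini-Hochberg adjusted p from limma, over all 13156 genes, was under 0.05.

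As a check of the samples, the T cell genes were bright on every array, with Cd8a between 12.48 and 13.66 and Cd8b1 between 13.17 and 14.55 on the log2 scale. The CD4 marker Cd4 did not pass the filter on dim genes, and Foxp3, which defines regulatory T cells, lay between 4.77 and 6.52. Not all markers of these cells were as dim. Ikzf2, of the regulatory markers, had group means from 10.38 to 11.56, and Ikzf4 from 7.23 to 8.44. Of the CD4 markers, Cd40lg lay from 5.15 to 5.85 and Zbtb7b from 6.02 to 7.36. At WT T0 the B cell markers Cd74 and Ly6d stood at 12.42 and 7.88, and the myeloid marker C1qa at 11.02. The B cell list ran from 5.21 (Pax5) to 14.65 (Ighm) there, and the myeloid list from 7.83 (Cd14) to 13.19 (Ctss). Cd4 and Foxp3 alone do not show how pure the cells were. The Scap probe set tested was lower in KO by 0.25 at T0 and 0.47 at T6 on the log2 scale, and neither difference was called. Which part of Scap was floxed is not stated in the labels, and a probe outside it would not check the genotype. The correlation between arrays was 0.969 to 0.978 within a group and 0.949 to 0.977 between groups.

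The first comparison was activation in WT cells. Over 6 h, Il2ra rose steeply, and Il6ra, Il18r1 and Il6st fell. Il2rb, Il7r, Il4ra and Il21r were not called. The count was therefore 1 chain higher and 3 lower of 8, where 25.1% of all genes were called (11.3% higher and 13.8% lower). The median log2 difference of the 8 chains was -0.22, against -0.06 over all genes. In KO cells 2 chains were higher (Il2ra and Il4ra) and the same 3 were lower, with a median of -0.36 against -0.0036 over all genes, where 20.9% of genes were called, 10.4% in each direction. The T0 and T6 arrays did not overlap for 6 of the 8 chains in WT and for 6 of 8 in KO, where 42.8% and 36.5% of all genes did not overlap. Those 6 chains were in both genotypes the ones other than Il2rb and Il7r.

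**Figure D1:**
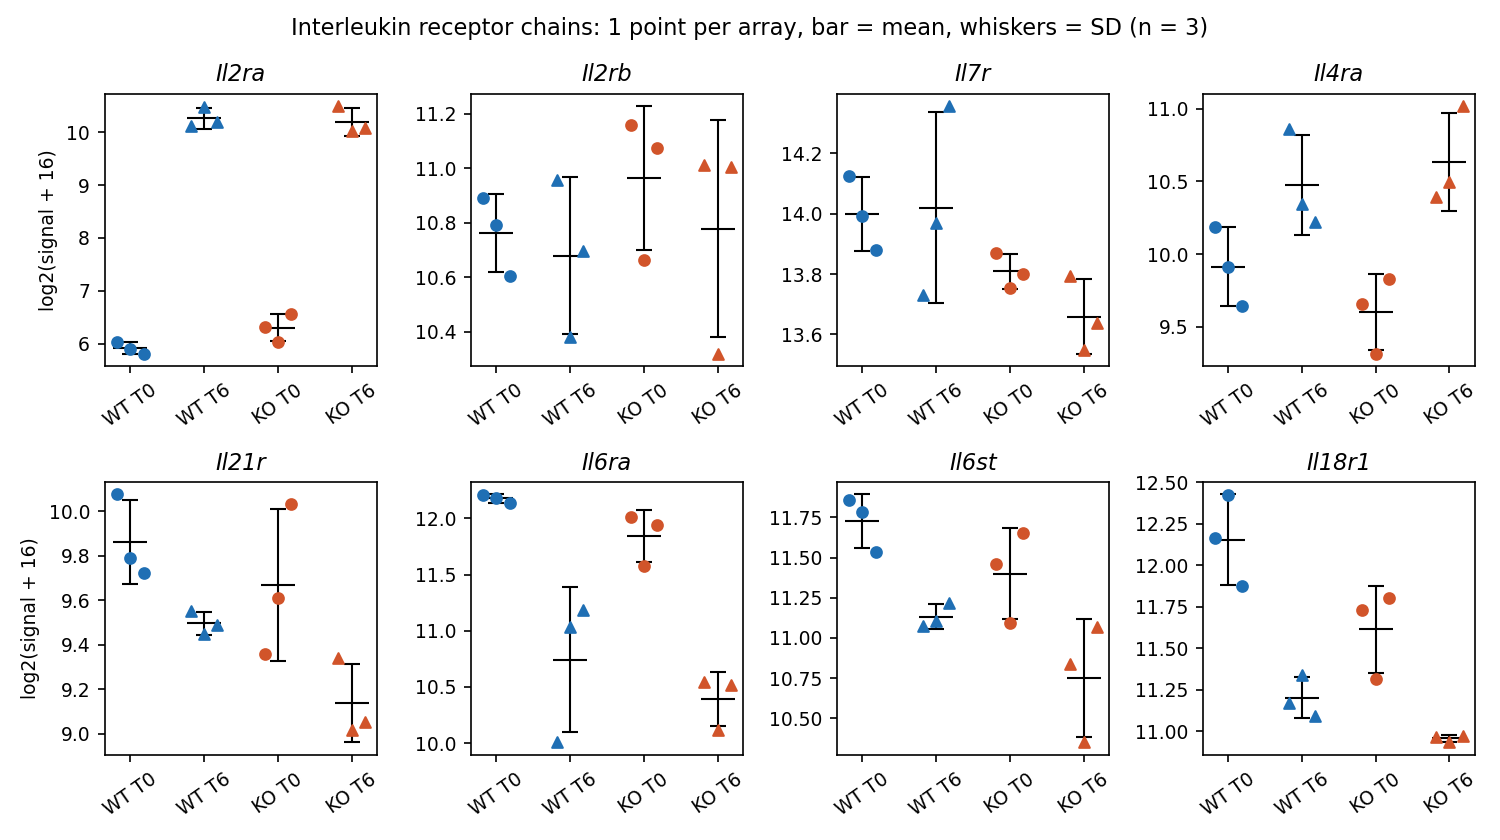
Log2(signal + 16) of the 8 measured interleukin receptor chains on each of the 12 arrays, by group; circles are T0 arrays, triangles T6 arrays, horizontal bars group means and whiskers SD (n = 3). Il2ra lay between 5.81 and 6.56 at T0 and between 10.02 and 10.50 at T6, while Il7r and Il2rb overlapped between T0 and T6 in both genotypes.

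Il2ra, the inducible alpha chain, had T0 signals of 49.8, 43.8 and 40.2 in WT and of 63.3, 49.8 and 78.6 in KO. At T6 its signals were 1097, 1418 and 1152 in WT and 1432, 1020.3 and 1067 in KO. Every T6 array was far above every T0 array in either genotype, and the T6 arrays of the genotypes overlapped. The log2 difference was 4.35 in WT (SE 0.17, adjusted p = 2.9e-07) and 3.90 in KO (SE 0.17, adjusted p = 8.5e-07). It ranked 12 from the highest of 13156 genes in WT and 18 in KO. The ratio of mean signals was 27.4 in WT and 18.4 in KO, larger than the log2 differences imply because the T0 signals lay near the filter level and the added 16 weighs on them. A second Il2ra probe set (1420691_at) gave signal ratios of 13.9 in WT and 16.6 in KO, so the order of the genotypes is not the same for the 2 probe sets. Il2ra was called under every alternative tried, 26 in WT and 27 in KO.

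Il2rb, the beta chain that Il2ra joins, did not change detectably. Its signals were 1881, 1757 and 1543 at T0 and 1973, 1319 and 1645 at T6 in WT. In KO they were 2266, 1606 and 2139 at T0 and 2050, 1262 and 2036 at T6. The groups overlapped throughout. On activation the log2 difference was -0.08 in WT (SE 0.22, adjusted p = 0.828) and -0.19 in KO (SE 0.22, adjusted p = 0.615). A covariate of B cell and myeloid markers turned both to higher, at 0.60 and 0.40, and neither was called.

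Il7r, the receptor of the survival cytokine IL-7, was bright in every group, with a lowest array at 11958 and a highest at 20962. In WT the signals were 17855, 16262 and 15060 at T0 and 13572, 16030 and 20962 at T6. In KO they were 14969, 13800 and 14259 at T0 and 14174, 11958 and 12725 at T6. The T6 arrays of WT spread on both sides of the T0 arrays. On the log2 scale the change was 0.02 in WT (SE 0.15, adjusted p = 0.943) and -0.15 in KO (SE 0.15, adjusted p = 0.543). The sign of the WT value rests on single arrays, since it was -0.15 without WT T6 replicate 3.

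Il4ra encodes the alpha chain of the IL-4 receptor, which also serves IL-13. Its signals in WT were 1150, 946 and 783 at T0 and 1846, 1286 and 1175 at T6. In KO they were 793, 620 and 891 at T0 and 1325, 1428 and 2059 at T6. In both genotypes all T6 arrays lay above all T0 arrays. The change on the log2 scale was 0.56 in WT (SE 0.23, adjusted p = 0.107) and 1.04 in KO (SE 0.23, adjusted p = 0.0105), so the KO change alone was called. The KO call was lost with the mean of the Il4ra probe sets, at 0.61 (adjusted p = 0.092). Of the other Il4ra probe sets, 1423996_a_at was called in KO at 0.82 (adjusted p = 0.040), and the dim 1447858_x_at stood at -0.01.

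Il21r, which binds IL-21, lies next to Il4ra on chromosome 7, with 0 annotated genes between them. In WT its signals were 1063, 868 and 828 at T0 and 734, 681 and 703 at T6. In KO they were 641, 765 and 1032 at T0 and 632, 502 and 515 at T6. All T6 arrays lay below all T0 arrays of their genotype, by a narrow gap in KO. The log2 difference was -0.37 in WT (SE 0.17, adjusted p = 0.152) and -0.53 in KO (SE 0.17, adjusted p = 0.0523), and neither was called. The KO value stood close to the threshold. It was called without KO T0 replicate 1, the lowest T0 array, at -0.69 (adjusted p = 0.023), and with genotype and replicate number as a random block (adjusted p = 0.0352). It was also called with 64 added to the signal (0.0435), with the filter at percentile 60 (0.0325), with a trend in the variance prior (0.0343) and with means of probe sets (0.0494). With the replicate number as a fixed block within KO it was not (adjusted p = 0.0635), and with the Actb covariate it stood at -0.14.

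Il6ra, the IL-6 binding chain, had WT signals of 4717, 4637 and 4487 at T0 and of 1012, 2085 and 2313 at T6. Its KO signals were 4115, 3041 and 3914 at T0 and 1478, 1093 and 1447 at T6. Every T6 array lay below every T0 array. The mean signal fell by 60.9% in WT and by 63.7% in KO. The log2 difference was -1.43 in WT (SE 0.27, adjusted p = 0.0039) and -1.45 in KO (SE 0.27, adjusted p = 0.0043). The second Il6ra probe set (1422270_a_at) was called lower in both genotypes too, at -1.07 in WT (adjusted p = 0.00041) and -0.96 in KO.

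Il6st, the shared signalling chain gp130, had WT signals of 3694, 3505 and 2954 at T0 and of 2137, 2186 and 2369 at T6. Its KO signals were 2796, 2170.0 and 3198 at T0 and 1811, 1289 and 2134 at T6. The groups did not overlap in either genotype, although KO T0 replicate 2 came close to the highest KO T6 array. The log2 difference was -0.59 in WT (SE 0.19, adjusted p = 0.0485) and -0.65 in KO (SE 0.19, adjusted p = 0.0391). Both calls stood close to the threshold and were lost when single arrays were left out. In WT the call was lost without any one of the 6 WT arrays, KO T0 replicate 1 or KO T6 replicate 1, with a highest adjusted p of 0.134. In KO it was lost without WT T0 replicate 2, any WT T6 replicate, KO T0 replicate 1 or 3, or KO T6 replicate 1 or 2, with a highest adjusted p of 0.130. A second Il6st probe set, 1437303_at, was called lower in the fit of single probe sets at -1.09 in WT (adjusted p = 0.0019) and -1.23 in KO (adjusted p = 0.0011). Another, 1460295_s_at, was called at -0.82 in WT (adjusted p = 0.0099) and -1.07 in KO (adjusted p = 0.0028), and the dim 1421239_at was not called.

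Il18r1, the IL-18 binding chain, had WT signals of 4569, 5473 and 3746 at T0 and of 2291, 2571 and 2170.3 at T6. Its KO signals were 3379, 2530 and 3553 at T0 and 1986, 1938 and 1996 at T6. The groups did not overlap in either genotype, and the KO T6 arrays lay close together. The mean signal fell by 49.0% in WT and by 37.4% in KO. The change on the log2 scale was -0.95 in WT (SE 0.16, adjusted p = 0.0020) and -0.66 in KO (SE 0.16, adjusted p = 0.0160). The KO call was lost without KO T0 replicate 1 (-0.60, adjusted p = 0.059) or KO T0 replicate 3 (-0.56, adjusted p = 0.061).

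**Figure D2:**
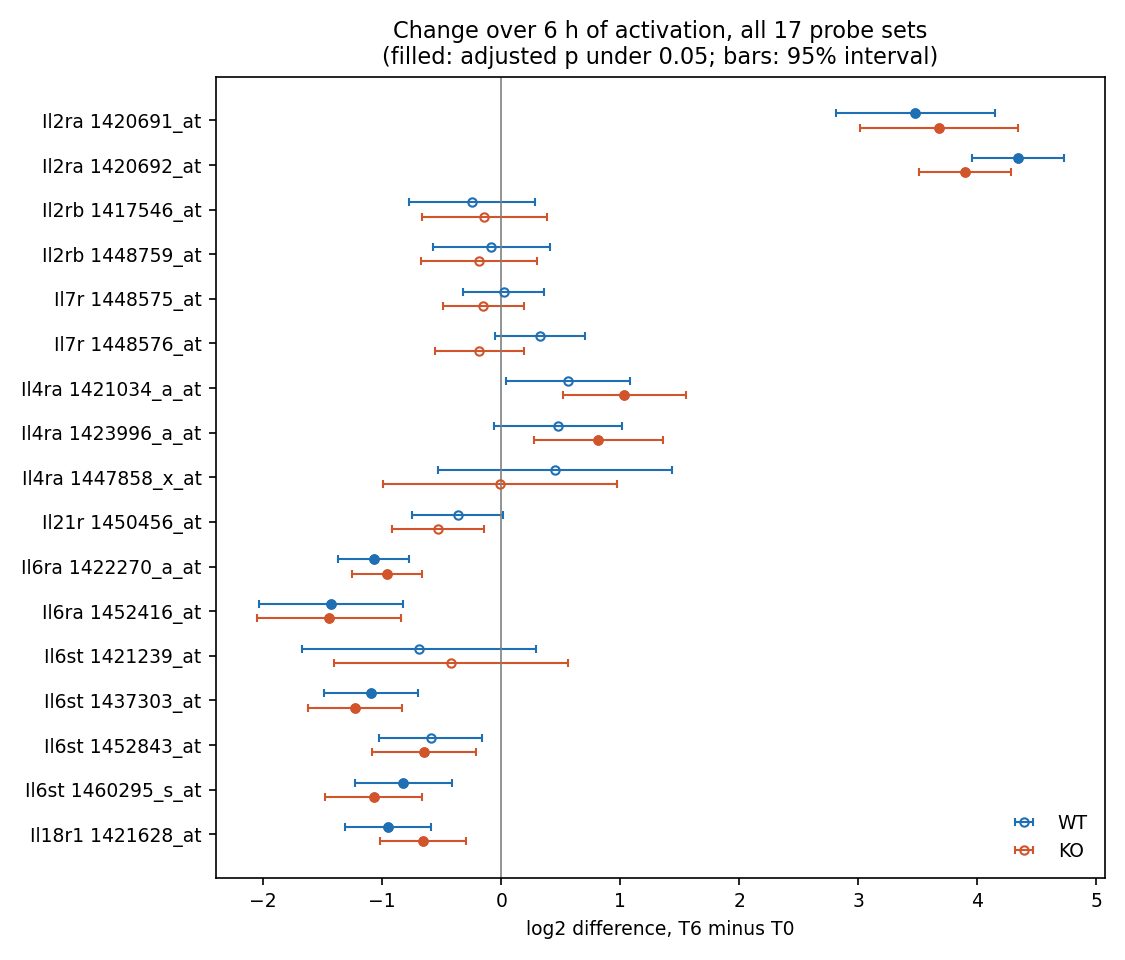
Log2 difference between T6 and T0 for each of the 17 probe sets in WT and KO, with 95% intervals; filled points have an adjusted p under 0.05 in the fit of single probe sets. Differences ran from -1.43 to 4.35 in WT and from -1.45 to 3.90 in KO, and both Il2ra probe sets stood apart on the right.

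Taken as 17 separate probe sets, 2 were higher and 5 lower in WT, where 22% of the 24539 probe sets kept were called. In KO 4 were higher and 6 lower, where 19.6% were called. Those of 1 gene are not independent of each other. Without KO T0 replicate 3 the count of chains called in KO was 3 instead of 5, with Il6st and Il18r1 lost. With the mean of B cell and myeloid markers as a covariate the count was 1 in WT and 1 in KO, and the chain that stayed was Il2ra, whose highest adjusted p over all alternatives was 0.00051 in WT and 0.00095 in KO. That covariate left 332 genes called in WT and 404 in KO. With the Actb 3' minus 5' signal, a sign of RNA integrity, as a covariate the count in KO was 1, again Il2ra, and 262 genes were called in all.

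Other cells and RNA quality moved with activation. The mean of 13 myeloid markers fell by 2.73 in WT and fell by 2.44 in KO on the log2 scale, from 10.59 to 11.00 at WT T0 to 7.70 to 8.24 at WT T6, and from 11.09 to 11.42 at KO T0 to 8.54 to 8.98 at KO T6. Of these markers 11 of 13 were called lower in each genotype, with the complement gene C1qa going from a mean of 11.02 to 6.04 in WT. Naive T cell markers were called lower for 6 of 6 in WT and 4 of 6 in KO. Klf2 (-0.47) and Ccr7 (-0.18) were lower in KO without a call. Of all genes, 13.8% were called lower in WT and 10.4% in KO. The Actb 3' minus 5' difference was 0.30 at WT T0 and 0.50 at WT T6, and 0.36 at KO T0 and 0.71 at KO T6. Within each genotype the myeloid mean and the Actb difference each separated all T0 arrays from all T6 arrays. The covariates thus follow the step from T0 to T6, and the fits above cannot reliably tell their part from that of activation. A call lost in those fits does not show the part of other cells or of RNA quality. The part of each in the changes of Il6ra, Il6st, Il18r1 and Il4ra was not tested further.

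The promoters of 4 chains are shown to set chains with a called rise (Il2ra in both genotypes, Il4ra in KO) beside chains with a called fall in both (Il6ra and Il18r1). Il6st, whose called falls stood close to the threshold, is not shown. Each is the 250 bases before the annotated start, read 5′ to 3′ on the gene's strand (RefSeq, GRCm38.p6). They lie at chr2:11642542-11642791 on the plus strand for Il2ra, chr7:125552021-125552270 on the plus strand for Il4ra, chr3:89913197-89913446 on the minus strand for Il6ra, and chr1:40465302-40465551 on the plus strand for the most upstream of the Il18r1 starts. Capitals mark matches to any of 7 short motifs on either strand.
Il2ra: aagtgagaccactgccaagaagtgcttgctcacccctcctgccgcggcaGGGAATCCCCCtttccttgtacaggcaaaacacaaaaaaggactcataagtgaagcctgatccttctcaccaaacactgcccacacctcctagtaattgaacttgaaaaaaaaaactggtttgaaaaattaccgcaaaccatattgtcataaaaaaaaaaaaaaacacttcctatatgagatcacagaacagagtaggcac
Il4ra: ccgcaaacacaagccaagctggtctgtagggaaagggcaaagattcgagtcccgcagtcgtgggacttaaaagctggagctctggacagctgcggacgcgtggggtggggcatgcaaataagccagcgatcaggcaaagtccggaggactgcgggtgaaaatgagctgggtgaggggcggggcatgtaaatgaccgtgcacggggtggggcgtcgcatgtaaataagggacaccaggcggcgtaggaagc
Il6ra: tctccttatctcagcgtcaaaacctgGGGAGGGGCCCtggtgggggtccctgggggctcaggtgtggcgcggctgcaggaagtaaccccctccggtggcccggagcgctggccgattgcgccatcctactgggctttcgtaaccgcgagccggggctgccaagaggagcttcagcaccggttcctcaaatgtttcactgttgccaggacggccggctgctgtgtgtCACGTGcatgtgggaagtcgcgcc
Il18r1: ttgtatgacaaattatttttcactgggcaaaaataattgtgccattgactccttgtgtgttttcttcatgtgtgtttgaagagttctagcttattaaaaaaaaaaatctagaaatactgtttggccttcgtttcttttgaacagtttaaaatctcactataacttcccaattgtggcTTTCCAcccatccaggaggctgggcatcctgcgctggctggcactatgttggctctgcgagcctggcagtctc

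The capitals in Il2ra are a pair of overlapping matches to an NF-kB motif, here GGG and CC with any 5 bases between them. The first capitals in Il6ra are another such pair, and the second are a match to the E-box CACGTG. The capitals in Il18r1 are a match to the NFAT motif TGGAAA on the opposite strand, and Il4ra held no match. Such letters are common. The NF-kB letters stood in 45.8% of the 32851 mouse promoter windows in the table, TGGAAA in 18.58% and CACGTG in 6.02%. The table held 9 windows for 7 of the 8 measured chains, and Il2rb was the one not in it. Of the 9, NF-kB letters stood in 4 (Il2ra, Il6ra, Il21r and a downstream Il18r1 start), and the STAT motif TTCNNNGAA stood in 2 (Il7r and that Il18r1 start), against 7.02% of all windows. The FOXO motif TGTTTAC stood in the Il21r window, against 3.17% of all windows. The AP-1 motif TGANTCA and the SREBP motif TCACNCCAC, the element bound by the factors that Scap escorts, stood in 0 of the 9, against 6.75% and 1.05% of all windows. A match is a run of letters and not a site shown to be bound.

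Whether activation differed between the genotypes was asked with the interaction, the KO change minus the WT change. It was called for 0 of the 8 chains and for 0 of 13156 genes with limma, and 604 genes had an unadjusted p under 0.05, none of them a chain. The estimate was -0.45 for Il2ra (95% interval -0.99 to 0.09), 0.47 for Il4ra (-0.26 to 1.21) and 0.30 for Il18r1 (-0.21 to 0.80). It was -0.02 for Il6ra (-0.88 to 0.84), -0.06 for Il6st (-0.67 to 0.56) and -0.17 for Il21r (-0.70 to 0.37). For Il7r it was -0.17 (-0.64 to 0.30) and for Il2rb -0.10 (-0.80 to 0.59). The intervals are wide for changes of the size seen in most of the chains. A call of Il4ra in KO and not in WT is thus not shown to be a difference between the genotypes.

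**Figure D3:**
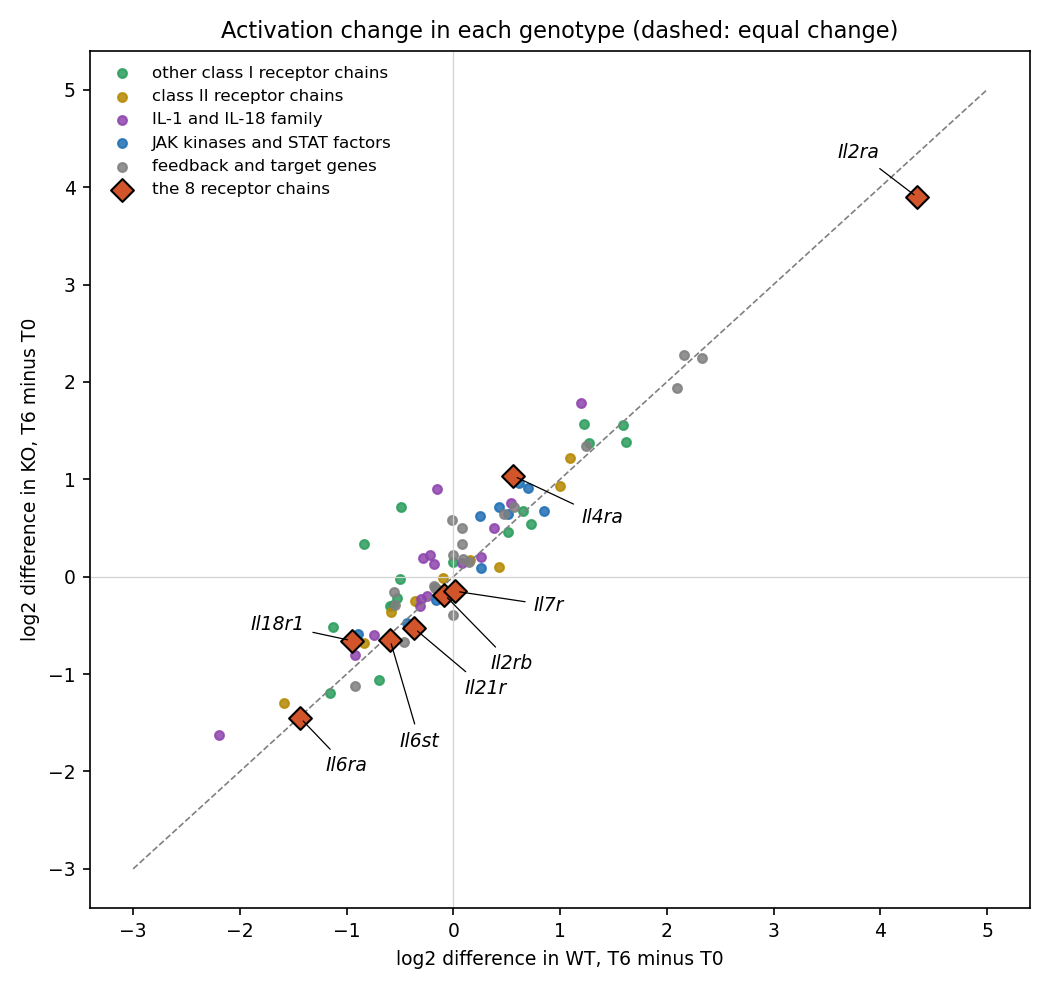
Log2 difference between T6 and T0 in WT (horizontal) and KO (vertical) for the 8 receptor chains (diamonds) and genes of related lists (circles); the dashed line marks equal change. The chains lay near the line, from Il6ra at -1.43 and -1.45 to Il2ra at 4.35 and 3.90.

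The second question was whether the chains differed between KO and WT cells at rest. None of the 8 was called at T0, where 0.038% of all genes (5 of 13156) were. An unadjusted p under 0.05 was found for 2 chains, Il18r1 and Il2ra, where 9.78% of all genes had one. Il18r1 was lower in KO at a mean of 11.61 ± 0.26 against 12.15 ± 0.27 (log2 signal, SD, n = 3), a difference of -0.54 (SE 0.16, 95% interval -0.90 to -0.18, adjusted p = 0.407). All 3 KO arrays lay below all 3 WT arrays. Il2ra was 0.39 higher (adjusted p = 0.508) at levels near the filter, but its second probe set stood 0.23 lower, so no direction is given for it.

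Differences at T0 were -0.33 for Il6ra, -0.32 for Il6st, -0.31 for Il4ra, -0.19 for Il7r, -0.19 for Il21r and 0.20 for Il2rb. Several rest on single arrays: without KO T0 replicate 2 they were -0.20 for Il6ra, -0.17 for Il6st and -0.17 for Il4ra, and without KO T0 replicate 1 Il21r stood at -0.04. All 4 kept their sign without any single array, and Il18r1 ran from -0.68 to -0.39. KO and WT arrays did not overlap for Il2ra, Il7r, Il6ra and Il18r1, which is 4 of 8 where 16.6% of all genes did not overlap. For Il2ra the separation was nominal, with signals of 49.81 on KO T0 replicate 2 and 49.75 on WT T0 replicate 1, near the filter level. Negative values were found for 6 of 8 chains, where genes as a whole were split evenly between the signs. Among single probe sets, 13 of 17 were negative, where 52.4% of all were, and 0 were called, where 0.0163% of all were. Probe sets of 1 gene are not independent of each other.

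At T6 again none of the 8 was called, where 0.0988% of all genes (13 of 13156) were, 0.0304% higher and 0.0684% lower in KO. Il7r had an unadjusted p under 0.05, the one chain of 8 with this, where 11.8% of all genes had one. Its mean was 13.66 ± 0.12 in KO against 14.02 ± 0.32 in WT (log2 signal, SD, n = 3), a difference of -0.36 (SE 0.15, 95% interval -0.69 to -0.03, adjusted p = 0.393). The KO mean signal was 23.2% below that of WT, and the groups overlapped at WT T6 replicate 1 and KO T6 replicate 1. The second Il7r probe set (1448576_at) had signals of 5092, 5607 and 8481 in WT and of 4106, 3774 and 4030 in KO. There the groups did not overlap, and the difference was -0.65 (SE 0.17, 95% interval -1.03 to -0.27, adjusted p = 0.139), not called. Without WT T6 replicate 3, the brightest array, the Il7r gene difference was -0.19.

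KO and WT arrays at T6 did not overlap for Il21r (-0.36), Il6st (-0.38) and Il18r1 (-0.24), all lower in KO, which is 3 of 8 where 18.8% of all genes did not overlap. The differences were -0.35 for Il6ra, 0.10 for Il2rb, -0.07 for Il2ra and 0.16 for Il4ra. When single arrays were left out, Il6ra ran from -0.72 to -0.13, Il6st from -0.54 to -0.18 and Il7r from -0.50 to -0.19. The lowest Il6ra value came without WT T6 replicate 1 and the highest without WT T6 replicate 3, and the highest Il6st value without KO T6 replicate 2. The other Il4ra probe sets stood at -0.28 and -0.31, so its direction is not settled. Negative values were found for 6 of the 8 chains, where 42.9% of all genes had one. Of the 17 probe sets, which are not independent within a gene, 14 were negative, where 48.0% of all were. Of these 17, 0 were called, where 0.477% of all were. The median difference between KO and WT over the 8 chains was -0.25 at T0 and -0.30 at T6, against -0.0001 and 0.04 over all genes.

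**Figure D4:**
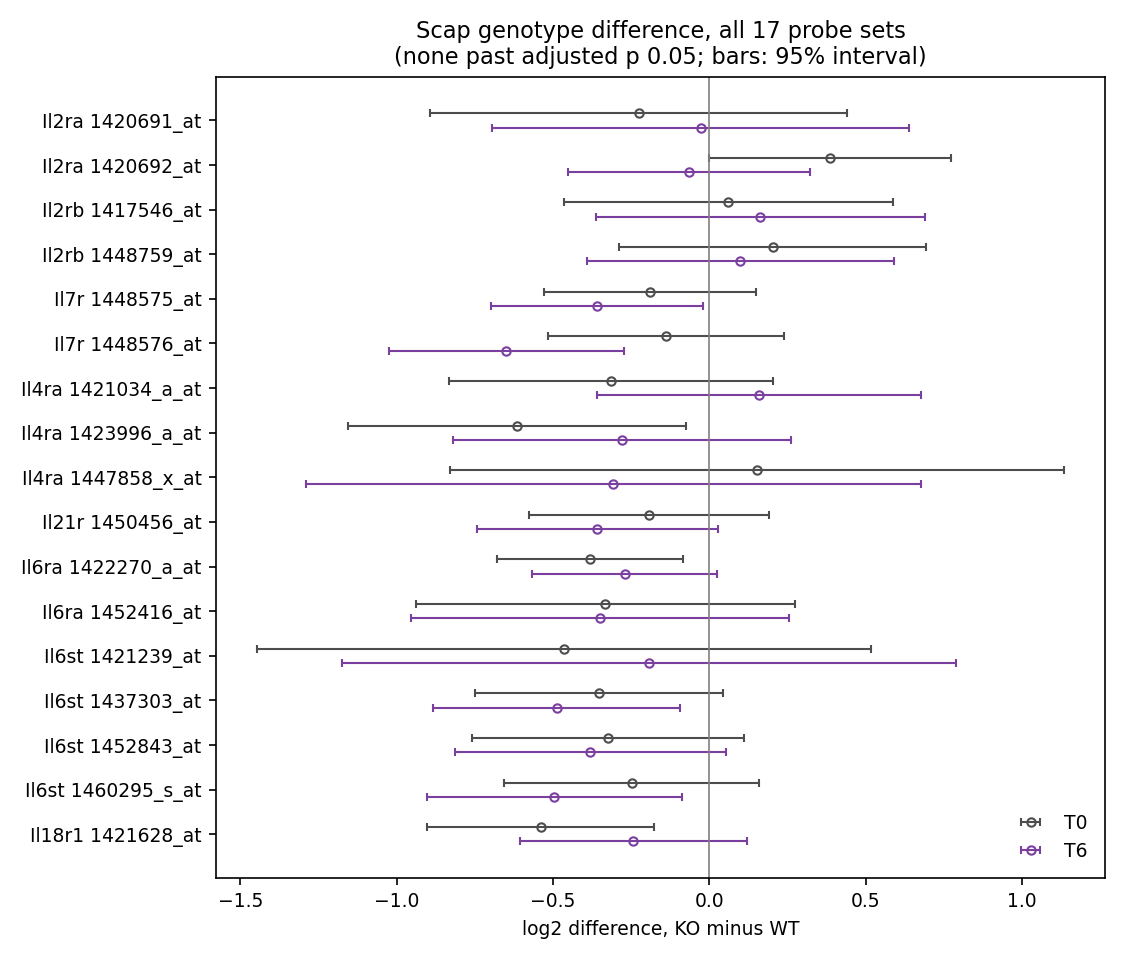
Log2 difference between KO and WT at T0 and at T6 for each of the 17 probe sets, with 95% intervals; none had an adjusted p under 0.05. Differences ran from -0.62 to 0.39 at T0 and from -0.65 to 0.16 at T6, and 13 and 14 of the 17 lay below 0. Probe sets of 1 gene are not independent of each other.

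Lower T cell signal and higher signal of other cells accompanied these differences. All 11 T cell identity markers tested were lower in KO at both times, with medians of -0.23 at T0 and -0.27 at T6 and 0 called. The B cell markers lay higher in KO for 13 of 13 genes at both times, with medians of 0.89 and 1.32 and 0 called. Their mean ran from 7.76 to 8.72 at WT T0 and from 8.61 to 10.09 at KO T0, and from 7.24 to 8.15 at WT T6 and from 8.38 to 9.51 at KO T6. Of 13 myeloid markers, 12 were higher in KO at both times, with medians of 0.50 and 0.75, and Tyrobp at T6 was the one called. The 2 erythroid markers tested, Slc4a1 and Alas2, were higher in KO with medians of 3.35 at T0 and 2.73 at T6, and neither was called. Naive T cell markers were lower in KO for 6 of 6 genes at T0, with a mean of 12.71 to 12.82 against 13.09 to 13.35, and 0 were called. At T6 their means overlapped, at 11.21 to 11.39 in KO and 11.28 to 11.69 in WT. The Actb 3' minus 5' difference overlapped at T0, and at T6 it ran from 0.62 to 0.79 in KO and from 0.45 to 0.54 in WT.

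With the B cell and myeloid covariate no chain was called in KO against WT at either time. Il18r1 then stood at -0.67 at T0 and -0.42 at T6, and Il7r at -0.20 and -0.37. Il2rb turned to -0.11 at T0 and -0.31 at T6, and Il4ra to -0.10 at T6. With the Actb covariate again no chain was called, and the T6 values were -0.10 for Il18r1, -0.13 for Il21r, -0.49 for Il6st and -0.44 for Il7r. With each covariate 0 genes of the whole table were called at T6, where 13 were called without one. The myeloid mean separated KO from WT arrays at both times, and the Actb difference did at T6. These fits therefore cannot reliably tell the part of the covariates from that of genotype. The part of T cell, naive and erythroid signal in the chain values was not tested.

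The order of the 4 group means was the same for Il18r1, Il21r, Il6ra and Il6st: WT T0 highest, then KO T0, WT T6 and KO T6. That order was held by 9.43% of all 13156 genes. For Il6ra the neighbours KO T0 and WT T6 were clearly apart (11.84 ± 0.23 and 10.74 ± 0.64), and for Il21r they overlapped (9.67 ± 0.34 and 9.50 ± 0.05). For Il6st KO T0 and WT T6 stood at 11.40 ± 0.28 and 11.13 ± 0.08, and their arrays overlapped, as did those of Il18r1 (11.61 ± 0.26 and 11.20 ± 0.12). Il4ra ran from KO T6 (10.63 ± 0.34) and WT T6 (10.48 ± 0.34), which overlapped, to WT T0 (9.91 ± 0.27) and KO T0 (9.60 ± 0.26), which overlapped too. Il7r ran from WT T6 (14.02 ± 0.32) and WT T0 (14.00 ± 0.12) to KO T0 (13.81 ± 0.06) and KO T6 (13.66 ± 0.12), and of the neighbours only WT T0 and KO T0 did not overlap. Il2rb ran from KO T0 (10.96 ± 0.26) to WT T6 (10.68 ± 0.29), with every pair of neighbours overlapping. Il2ra ran from WT T6 (10.27 ± 0.19) and KO T6 (10.20 ± 0.26), which overlapped, to KO T0 (6.30 ± 0.26) and WT T0 (5.92 ± 0.11).

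Across the 12 arrays, which share the step between T0 and T6, Il6st and Il18r1 correlated at 0.891, Il6ra and Il18r1 at 0.874 and Il6ra and Il6st at 0.867 (Pearson's r). Il2ra correlated at -0.890 with Il6ra and at 0.802 with Il4ra. Outside the chains, the genes most like Il2ra over the 12 arrays were Ccl3 (0.997), Nr4a3 (0.997) and Sema7a (0.996). Those most like Il6ra were Kif21b (0.989), Btbd11 (0.984) and Lef1 (0.983), and those most like Il4ra were Stat4 (0.977), Lyst (0.977) and Mpzl2 (0.969). For Il6st they were Arpc5l (0.971), Dock11 (0.963) and Leprotl1 (0.962), and for Il18r1 Tle4 (0.965), Casp8 (0.961) and Nup210 (0.951). For Il21r they were Capza1 (0.933), Rfx7 (0.926) and Trappc12 (0.913). The values were lower for Il2rb and Il7r. Il2rb had Tnrc18 (0.903), Higd2a (0.895) and Gpbp1l1 (0.887), and Il7r had Gtf2i (0.898), Limd2 (0.877) and Cmah (0.873).

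Ligands of these receptors were measured in the same cells. Of 6 ligands tested, 2 rose and 2 fell in WT and 4 rose in KO, where 25.1% and 20.9% of all genes were called. Il2, the T cell growth factor read by Il2ra and Il2rb, rose by 4.44 in WT (SE 0.34) and 5.10 in KO (SE 0.34), and Il4 by 3.89 and 3.97 (SE 0.58 each). Il13 and Il6 were called in KO at 1.63 and 2.15, and stood at 0.17 and 1.37 in WT without a call. Il15, which is read through Il2rb, fell in WT (-0.76) and stood at 0.16 in KO, and Ebi3, a subunit of IL-27, fell in WT (-1.38) and stood at -0.54 in KO. None of these differences between genotypes was called in the interaction. The T0 means of Il2, Il6 and Il13 in both genotypes, and that of Il4 in WT (5.41), lay below the filter level. The sizes of these changes therefore depend on the added constant.

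Partner and related receptor chains moved in both directions. The list tested held 17 other class I chains and partner chains such as Il15ra. In WT 3 rose and 3 fell, where 25.1% of all genes were called. In KO 3 rose and 2 fell, where 20.9% were. Il15ra, the alpha chain that presents IL-15 to Il2rb, rose by 1.62 in WT and 1.39 in KO. Il12rb1, a chain of the IL-12 and IL-23 receptors, rose by 1.59 and 1.56. Csf2rb2, a beta chain of the mouse IL-3 receptor, rose by 1.23 and 1.56. Il27ra, which pairs with gp130 to bind IL-27, fell by 1.15 and 1.19, and Il13ra1, the partner of Il4ra in the IL-13 receptor, fell by 0.69 and 1.06. Csf3r, a receptor of myeloid cells, fell by 1.13 in WT and was not called in KO (-0.51).

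Among 9 class II chains, which bind interferons and the IL-10 family, 2 rose and 3 fell in WT and 2 rose and 2 fell in KO, beside the same shares of all genes. The interferon gamma receptor chains parted, Ifngr1 rising by 1.09 in WT and 1.22 in KO and Ifngr2 falling by 1.59 and 1.30. Il10rb fell by 0.83 and 0.68. Of 15 genes of the IL-1 and IL-18 family, 2 were called in WT, both lower, and 4 in KO, 3 higher and 1 lower, against 25.1% and 20.9% of all genes. Il18, the ligand of Il18r1 and a product of myeloid cells, fell by 2.19 in WT and 1.63 in KO, beside the fall of the myeloid markers. Il18rap, the signalling partner of Il18r1, stood at -0.22 in WT and 0.22 in KO, and neither was called. Of 4 IL-17 receptor chains, Il17rb alone was called, lower in both genotypes (-0.72 and -1.23), where 25.1% and 20.9% of all genes were called. It was dim, with group means from 6.20 to 7.51.

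Downstream of the chains, 4 of 10 JAK and STAT genes rose and 2 fell in WT, where 11.3% of all genes rose and 13.8% fell. In KO 6 rose and 1 fell, where 10.4% of all genes went each way. Stat5a, which carries IL-2 and IL-7 signals, rose by 0.69 in WT and 0.91 in KO, and Stat3, which carries IL-6 and IL-21 signals, by 0.62 and 0.96. Jak2 rose by 0.85 and 0.67. Jak1, the kinase bound to most of these chains, fell by 0.43 and 0.47, and Jak3, the kinase of the common gamma chain, fell by 0.90 in WT and stood at -0.59 in KO without a call. Of 20 feedback and target genes, 5 rose and 2 fell in WT and 6 rose and 3 fell in KO, beside 25.1% and 20.9% of all genes called. The negative regulators Socs1 (2.33 and 2.25) and Cish (2.09 and 1.94) rose, as did the IL-6 family cytokine Lif (2.16 and 2.28) and the kinase Pim1 (1.24 and 1.35). Socs3, the feedback inhibitor of gp130, fell by 0.55 in WT and stood at -0.29 in KO without a call.

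Of 14 transcription factors known to act on Il7r or Il2ra, 6 rose and 4 fell in WT, and 6 rose and 4 fell in KO, beside the same shares. Rel, an NF-kB subunit that activates Il2ra, rose by 2.13 in WT and 2.13 in KO. Egr1 rose by 1.43 and 0.95, and Tbx21 by 1.13 and 1.27. Gfi1, a repressor of Il7r, rose by 1.27 in each. Foxo1, an activator of Il7r, fell by 1.25 in WT and 0.91 in KO, and Nfatc2, an NFAT factor, by 1.23 and 1.25. Il7r itself was not called at 6 h in either genotype. In the comparisons of KO with WT and in the interaction, no gene of these ligand, receptor and signalling lists was called.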

How the data were processed

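The deposited values are linear signal intensities of probe sets, which the authors made in GCOS, the Affymetrix array software, per the submitters' processing notes; its version is not given in the sources used here. The deposited intensity between percentiles 2 and 98 of each array averaged 500.003 on all 12 arrays, so the values had been scaled. Array medians ran from 61.3 to 76.2. No further normalization was applied. Of 45101 probe sets, 34945 carried 1 gene symbol, 932 several and 9160 none, 64 were controls, and the first kind gave 18193 genes, of which 13156 were kept.

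Log2(signal + 16) was fitted by lmFit and eBayes of limma 3.58.1 (R 4.3.3; two-sided tests), with a coefficient for each group over all 12 arrays, and the adjusted p covers all genes kept. Every probe set with 1 symbol was fitted as its own row in a second fit (24539 kept). SE is that of the fit. The fit was tested on simulated data with independent noise on each array. That run cannot show how the fit works where arrays share mice. The number of arrays, 3 per group, limits the precision. P-values measure the spread between these arrays. The added 16 understates changes of dim genes.

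The chains and the gene lists were chosen with earlier results of these data known. Named genes were the chains, Scap, per list and comparison up to 6 called genes by size and 2 others by smallest p, up to 4 markers per marker list by smallest p, and the 3 genes most correlated with each chain. Whether replicate numbers pair the arrays was checked by correlating deviations from group means between T0 and T6 arrays. Same-numbered pairs gave 0.18, 0.46 and 0.38 in KO, each over 0.1, where other pairs gave -0.40 to 0.14. KO T0 replicate 3 with KO T6 replicate 1, at 0.14, was thus over 0.1 too. The KO numbers were taken to pair the arrays. In WT they gave 0.23, -0.06 and -0.11, and the numbers were not. There T0 replicate 2 gave 0.20 with T6 replicate 3, and T0 replicate 3 gave 0.23 with T6 replicate 2. The remaining WT pairs gave -0.16 to -0.07. The WT arrays may thus be paired in another order than their numbers, and a WT block in that order was not tested. A fixed block of the replicate number within KO was therefore added after the data were seen. The fixed and random blocks over both genotypes used the WT numbers all the same, and the main fit held no block. The comparisons of KO with WT, of T6 with T0 and the interaction share arrays.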

Additional observations from a re-analysis of the deposited data

How the results depend on the processing

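Each result was recomputed under 26 alternatives, 12 of which left out 1 array, and the KO change and the interaction also under 1 chosen after seeing the data, a replicate block within KO. They covered the added constant, the filter, median centring, quantile normalization, the choice of probe set, the groups in the fit, the variance prior, a replicate block and 2 covariates. Of 1056 values for single chains, 976 kept direction and side of the threshold, 38 lost a call, 6 gained one and 36 turned sign, the last all without a call. For part of these values the direction was fixed in advance. Changing the filter, the variance prior or the block, or leaving out an array outside the comparison, cannot move the difference itself. The interaction uses all groups, so the setting on the groups in the fit only repeats its main value. The 0 counts of called chains in KO against WT and in the interaction stayed 0 throughout. The count on activation was 1 in WT and 1 in KO with the B cell and myeloid covariate and 1 in KO with the Actb covariate. It ran from 3 to 4 in WT and from 3 to 5 in KO when single arrays were left out. With the replicate number as a block, fixed, it was 4 in WT and 5 in KO; as a random block it was 4 and 6, with Il21r added in KO. With the block within KO it was 5, the same chains as without it, and the block changed no other call in KO. The cause of these moves was not tested.

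The values that turned sign were these, none of them called. On activation in WT, Il7r was -0.054 with quantile normalization, -0.0544 with the Actb covariate and -0.15 to 0.16 without single arrays. Il2rb was 0.032 with median centring, 0.60 with the B cell and myeloid covariate and -0.22 to 0.065 without single arrays, and in KO 0.40 with that covariate and -0.34 to 0.043 without single arrays. The interaction of Il6ra was 0.047 with the mean of its probe sets, 0.019 with the B cell and myeloid covariate and -0.39 to 0.20 without single arrays. That of Il21r was 0.0022 with the Actb covariate and -0.32 to 0.018 without single arrays, that of Il6st -0.21 to 0.15 and that of Il2rb -0.25 to 0.13. In KO against WT at T0, Il2rb was -0.11 with the B cell and myeloid covariate. At T6 it was -0.31 with that covariate, -0.18 with the Actb covariate and -0.049 to 0.33 without single arrays. Il4ra at T6 was -0.14 with the mean of its probe sets, -0.10 with the B cell and myeloid covariate and -0.033 to 0.35 without single arrays. Il2ra at T6 was 0.048 with the Actb covariate and -0.22 to 0.045 without single arrays.

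Median centring moved the median activation change of all genes in WT from -0.06 to 0.05. Il2ra was called in 26 of 26 alternatives in WT and 27 of 27 in KO, Il6ra in 25 and 25, Il18r1 in 25 and 23, Il6st in 12 and 14, and Il4ra in KO in 24. Signal over background limits Il2ra at T0, Il4ra 1447858_x_at and Il6st 1421239_at, which lay near the filter level. No batch was tested: the files used here give no slide or scan date.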
